A study of Mus musculus with 9 samples.

Results

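The insulin-like growth factor system of the mouse ovary was described here by 10 genes: the ligand Igf1, the receptors Igf1r and Igf2r, the binding protein genes Igfbp2, Igfbp3, Igfbp4, Igfbp5, Igfbp6 and Igfbp7, and the protease gene Pappa. The members were chosen by gene name, 1 row per symbol, and all 10 were found among the 46078 genes of the count table. All 10 also passed the filter on low counts and were among the 16722 genes tested. The study sequenced polyadenylated RNA of whole ovaries from 5 WT mice and 4 ERβKO mice of the C57BL/6J strain, with 1 library per mouse. ERβKO mice lack exon 3 of Esr2, the gene of estrogen receptor β, in the germline, after a floxed allele was recombined by a Cre expressed from the Rosa26 locus, and the WT mice were offspring without Cre. All 9 ovaries are labelled untreated, and no diet or injection is given for a single library, although the submitters' protocol names both for the series. No age is given for a single ovary (mice of 4 to 20 weeks were used across all experiments), nor were ovaries staged by estrous cycle.

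Insulin-like growth factors are secreted peptides that bind a tyrosine kinase receptor and, through insulin receptor substrates, activate the phosphatidylinositol 3-kinase and MAP kinase pathways. Secreted binding proteins hold the ligand and limit its access to the receptor, and pappalysin proteases cut some of them and release it. In the mouse ovary, IGF1 made by granulosa cells of growing follicles acts together with follicle-stimulating hormone on granulosa cell growth and steroid synthesis.

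The WT libraries held 12353740 to 16519975 counted fragments, and the ERβKO libraries 13088728 to 18717510. The first principal component of all tested genes held 35.9% of the variance, and WT replicate 2 stood at 9.43 on it, above the remaining WT libraries (-43.8 to -15.6) and below all those of ERβKO (19.4 to 35.3). For this reason, results that depend on this ovary are given with and without it. It was picked from these same data as the WT library nearest to ERβKO. The fits without it are therefore not an independent check, and 912 genes passed in edgeR without it, against 287 with it. The count of Esr2 covers the whole gene, so that fragments from the exons left in the knockout allele count too, and its level was 12.4 to 23.9 FPKM (fragments per kilobase of gene, scaled to the mapped fragments of the library) in WT and 10.5 to 23.7 FPKM in ERβKO ovaries (adjusted p = 0.966 in edgeR). The whole-gene level therefore does not check the genotype labels. Of the markers of granulosa, theca and luteal cells, oocytes and adipocytes, none was at 0 in all ovaries, but the theca marker Insl3 was listed at 0 FPKM in WT replicate 3 and in ERβKO replicates 2 to 4, with 0 to 5 fragments per library. Of the 10 luteal markers, 9 had a negative log2 fold change (log2 of the ratio of ERβKO to WT), 5 of them with a p under 0.05 before adjustment. None passed in edgeR and 3 passed in DESeq2, all lower. Their mean log2 CPM (counts scaled to the library total) was 8.53 to 9.60 in WT and 7.18 to 9.25 in ERβKO ovaries. All 10 granulosa markers had a positive log2 fold change, and 2 passed in edgeR and 4 in DESeq2, all higher in ERβKO, with a mean log2 CPM of 6.00 to 6.47 in WT and 6.68 to 7.13 in ERβKO ovaries. The 8 adipocyte markers reached a summed level of 1187 FPKM in ERβKO replicate 1, against 165 to 305 FPKM in WT and 182 to 481 FPKM in the other ERβKO ovaries. All 8 had a positive log2 fold change and a p under 0.05 before adjustment, while none passed in edgeR and 3 passed in DESeq2. In whole ovaries, fewer cells of a type and less RNA per cell cannot be told apart. These markers move with the genotype or with single ovaries, and their part in the values of the members was not tested.

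All 10 genes of the system were expressed in every ovary, at levels that spanned a wide range. Igfbp7 was the highest at a mean of 197 FPKM over the 9 ovaries, followed by Igfbp5 at 113 FPKM. Igfbp6 and Igfbp4 came next at 39.0 and 38.9 FPKM, then Igf1 at 28.5, Igfbp2 at 16.5, Igfbp3 at 14.4, Igf2r at 11.6, Igf1r at 10.9 and Pappa at 0.914 FPKM. Of these steps, 3 held in 9 of 9 ovaries: Igfbp7 above Igfbp5, Igfbp5 above Igfbp6, and Igf1r above Pappa. The neighbours Igfbp6 and Igfbp4 changed places between ovaries, with Igfbp6 higher in 4 of 9. Each of the other neighbouring pairs had the higher gene ahead in 6 of 9 ovaries, so that their order was not separated by the spread between mice. Within this order, Igf1 was above Igfbp2 in 4 of 4 ERβKO ovaries and in 2 of 5 WT ovaries.

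**Figure D1:**
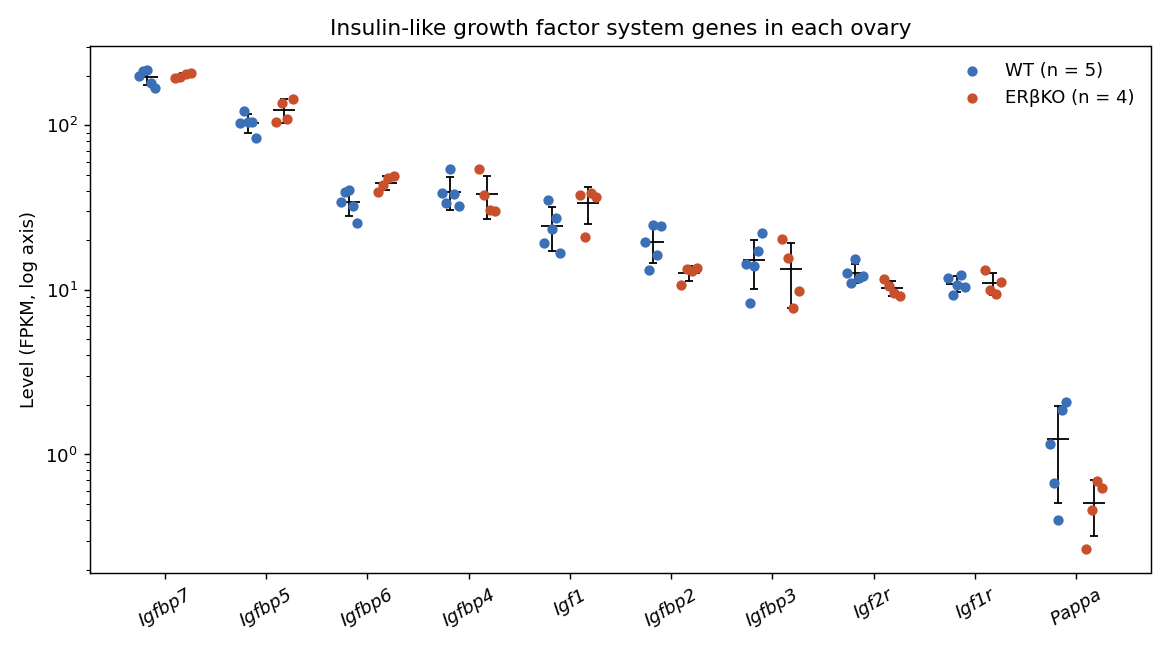
Level of each member in every ovary (y axis, FPKM on a log axis), with WT in blue (n = 5) and ERβKO in orange (n = 4); points are single ovaries, and black marks with bars are the mean and SD. The genes fall from Igfbp7 at 168 to 217 FPKM down to Pappa at 0.266 to 2.08 FPKM, and the points of the 2 genotypes overlap for every gene.

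None of the 10 members passed the test between genotypes in edgeR, with the thresholds of the study (adjusted p under 0.05, log2 fold change beyond 0.4 in either direction, and mean level above 1 FPKM in WT or ERβKO). Over all genes tested, 1.72% passed, 0.915% higher and 0.801% lower in ERβKO. Before adjustment, 4 of the 10 members had a p under 0.05, against 19.8% of all genes tested. Of these, Igfbp6 was higher in ERβKO, against 9.81% of all genes tested, and Igfbp2, Igf2r and Pappa were lower, against 10.0%. In DESeq2, the tool of the study, 1 member passed, Igfbp2, which was lower in ERβKO, against 4.88% of the genes tested. The study also names Igfbp2 among the estrogen response genes with lower expression in ERβKO ovaries. The FPKM values of the genotypes overlapped for all 10 members, while they did not overlap for 7.61% of all genes tested. The median log2 fold change of the members was -0.11, beside -0.00089 for all genes tested. The adjusted p-values of single genes given below are from edgeR's quasi-likelihood test unless DESeq2 is named.

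The members that differed most between the genotypes are shown here with the DNA just before their start sites, since the study asks which ovarian genes depend on ERβ, a factor that binds estrogen response elements. Sequences of the 250 bases before a RefSeq start site (GRCm38.p6) were matched by symbol for 9 of the 10 members, in 10 windows, since Igfbp2 has 2 start sites. The windows of the 3 members with an unadjusted p under 0.05 and an entry are printed 5′ to 3′ on the strand of the gene, for Igfbp2 the upstream window only. Capitals mark the response element half-site GGTCA, on either strand (TGACC), and the GC box GGGCGG, on either strand (CCGCCC), which Sp1 family factors bind.
Igfbp2, chr1:72824230-72824479, plus strand: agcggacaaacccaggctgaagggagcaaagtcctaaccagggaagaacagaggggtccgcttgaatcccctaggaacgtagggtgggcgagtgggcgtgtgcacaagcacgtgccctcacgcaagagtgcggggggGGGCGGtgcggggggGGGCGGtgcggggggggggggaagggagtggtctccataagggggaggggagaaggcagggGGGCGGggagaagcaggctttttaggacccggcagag
Igf2r, chr17:12769707-12769956, minus strand: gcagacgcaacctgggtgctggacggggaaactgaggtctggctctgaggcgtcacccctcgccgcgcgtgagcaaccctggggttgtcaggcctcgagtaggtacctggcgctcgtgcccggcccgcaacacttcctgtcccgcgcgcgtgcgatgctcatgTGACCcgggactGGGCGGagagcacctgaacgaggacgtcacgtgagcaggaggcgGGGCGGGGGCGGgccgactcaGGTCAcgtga
Igfbp6, chr15:102143936-102144185, plus strand: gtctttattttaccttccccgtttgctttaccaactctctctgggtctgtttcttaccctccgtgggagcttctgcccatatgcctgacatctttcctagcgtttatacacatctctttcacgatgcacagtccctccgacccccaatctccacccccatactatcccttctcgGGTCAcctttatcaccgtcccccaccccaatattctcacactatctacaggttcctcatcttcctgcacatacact

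The upstream Igfbp2 window held 3 GC boxes, which began 113, 98 and 37 bases before the start site, and no half-site. The second Igfbp2 window, which overlaps an annotated exon and is not printed, held 1 half-site, 31 bases before its own start site, and no GC box. The Igf2r window held half-sites 87 and 10 bases before the start site and GC boxes 75, 31 and 25 bases before it. The Igfbp6 window held 1 half-site, 76 bases before the start site, and no GC box. Such half-sites are common. They were in 6 of the 10 member windows and in 35.2% of 32851 mouse promoter windows of the same length, and the GC box was in 4 of the 10 and in 32.7% of all. The full element, GGTCA followed by TGACC with 3 bases between them, was in none of the 10 and in 0.0639% of all windows, and the site CAAGGTCA of the NR5A receptors, which contains the half-site, was in none of the 10 and in 1.33% of all. No match says only that these letters are not in this window, and binding was not measured in these data. The study mapped ERβ binding in mouse ovaries in a separate ChIP-seq experiment, not used here. It placed most sites in introns and between genes, and a minority in promoters.

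The ligand Igf1 (ENSMUSG00000020053, chromosome 10 of GRCm38 from 87858265 to 87937042, plus strand) was expressed at 19.4, 35.3, 23.5, 27.3 and 16.8 FPKM in WT replicates 1 to 5, and at 37.9, 20.9, 38.5 and 36.5 FPKM in ERβKO replicates 1 to 4. In FPKM, 3 of the ERβKO ovaries were thus above every WT ovary. ERβKO replicate 2 lay among the WT values, and WT replicate 2 just under the high ERβKO values. The means were 24.5 ± 7.28 FPKM (SD, n = 5) and 33.5 ± 8.40 FPKM (SD, n = 4). The log2 fold change was 0.27 ± 0.20 (SE, adjusted p = 0.488), so that the difference was within the spread between mice. Without WT replicate 2 the log2 fold change was 0.47 (adjusted p = 0.0906), and without ERβKO replicate 2 it was 0.40 (adjusted p = 0.403).

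For Igf1 and Igfbp4 the deposited FPKM did not follow the deposited counts exactly. The log2 of FPKM over CPM was taken relative to its median over 11072 genes in the same ovary. This centred ratio varied between -0.88 and -0.51 over the ovaries for Igf1. It was -0.86 in WT replicate 2 and -0.64, -0.51 and -0.57 in ERβKO replicates 1, 3 and 4. Per counted fragment, Igf1 in WT replicate 2 was therefore not below these ERβKO ovaries, and that order holds in FPKM only. For Igfbp5 the ratio varied between -1.005 and -0.995 and was nearly the same in every ovary. The mean ratio of Igf1 was 0.13 ± 0.073 (SE, log2) and that of Igfbp4 0.10 ± 0.062 (SE, log2) above WT in ERβKO, neither of which passed (limma, adjusted p = 0.993 for both, over 11072 genes). This measure was chosen after the values had been seen. The Igf1 fold change was accordingly larger on FPKM, with 0.44 on the log2(FPKM + 1) scale (adjusted p = 0.326 in limma).

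Igf1r (ENSMUSG00000005533, chromosome 7 from 67952859 to 68226780 in the deposited files, plus strand), the tyrosine kinase receptor through which IGF1 signals, was at 11.8, 9.35, 10.7, 12.3 and 10.5 FPKM in WT and at 13.2, 10.0, 9.43 and 11.2 FPKM in ERβKO ovaries. The values of the genotypes were intermingled. The log2 fold change was -0.03, with a 95% confidence interval of -0.26 to 0.20 (adjusted p = 0.902), and its sign was not stable to single ovaries being left out.

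Igf2r (ENSMUSG00000023830, chromosome 17 from 12682406 to 12769664, minus strand) encodes the cation-independent mannose 6-phosphate receptor, which takes IGF2 up for degradation and has no kinase domain. Its level was 12.6, 11, 15.4, 11.8 and 12.2 FPKM in WT and 11.6, 10.6, 9.51 and 9.19 FPKM in ERβKO ovaries. The groups overlapped only through WT replicate 2, which was below ERβKO replicate 1. The means were 12.6 ± 1.65 FPKM (SD, n = 5) and 10.2 ± 1.12 FPKM (SD, n = 4), with a log2 fold change of -0.33 ± 0.10 (SE, adjusted p = 0.124). The difference in mean log2 FPKM had p = 0.0317 in a two-sided exact permutation test over all splits of the 9 ovaries into 5 and 4, where the smallest possible p is 0.0159. In DESeq2 the adjusted p was 0.0482, where 7.83% of genes had an adjusted p under 0.05. Without WT replicate 2 it was 0.0455 in edgeR with a log2 fold change of -0.38, where 7.23% of genes were under 0.05. Both were short of the required size of 0.4.

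Among the binding proteins, Igfbp2 (ENSMUSG00000039323, chromosome 1 from 72824503 to 72852474, plus strand) had the smallest p of the members. It binds both insulin-like growth factors. Its level was 19.5, 13.2, 24.8, 16.4 and 24.4 FPKM in WT and 10.7, 13.4, 13.0 and 13.6 FPKM in ERβKO ovaries. Of the WT ovaries, 4 were above every ERβKO ovary, and WT replicate 2 lay inside the narrow ERβKO range. The means were 19.7 ± 5.04 FPKM (SD, n = 5) and 12.7 ± 1.30 FPKM (SD, n = 4). The log2 fold change was -0.67 ± 0.19 (SE, 95% confidence interval -1.08 to -0.26), with a p of 0.00443 before adjustment in edgeR and an adjusted p of 0.0905, and the exact permutation test gave p = 0.0476. Igfbp2 passed in DESeq2 (adjusted p = 0.0140) and in edgeR without WT replicate 2 (log2 fold change -0.79, adjusted p = 0.0180), when 5.51% of all genes passed.

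Igfbp5 (ENSMUSG00000026185, chromosome 1 from 72857932 to 72874884, minus strand) lies next to Igfbp2, with the 2 genes facing each other and 5457 bases between their ends. Its product binds to extracellular matrix and is one of the substrates of PAPPA. It was at 103, 121, 105, 105 and 83.4 FPKM in WT and at 105, 137, 109 and 145 FPKM in ERβKO ovaries. The 2 highest ovaries were ERβKO replicates 4 and 2, and the other ERβKO ovaries lay among the WT values. The log2 fold change was 0.23 ± 0.12 (SE, adjusted p = 0.30), opposite in sign to that of Igfbp2.

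Igfbp6 (ENSMUSG00000023046, chromosome 15 from 102144362 to 102149511, plus strand), a binding protein with a preference for IGF2, was at 34.3, 39.1, 40.6, 32.2 and 25.3 FPKM in WT and at 39.2, 43.2, 47.9 and 49.0 FPKM in ERβKO ovaries. Only WT replicate 3 was above the lowest ERβKO ovary. The means were 34.3 ± 6.08 FPKM (SD, n = 5) and 44.8 ± 4.51 FPKM (SD, n = 4), with a log2 fold change of 0.36 ± 0.13 (SE, adjusted p = 0.179; DESeq2, adjusted p = 0.138). The exact permutation test of this single value gave p = 0.0317.

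Igfbp4 (ENSMUSG00000017493, chromosome 11 from 99041244 to 99054392, plus strand), whose product is the classical substrate of PAPPA and inhibits IGF action, was at 39.0, 33.7, 54.6, 38.1 and 32.5 FPKM in WT and at 54.2, 37.5, 30.5 and 30.3 FPKM in ERβKO ovaries. A single ovary of each genotype, WT replicate 3 and ERβKO replicate 1, stood above the rest, and the log2 fold change was -0.19 ± 0.14 (SE, adjusted p = 0.472). It was -0.33 without ERβKO replicate 1 (adjusted p = 0.220), -0.10 without WT replicate 3 (adjusted p = 0.694), -0.11 and -0.13 without ERβKO replicates 3 and 4, and -0.07 on the log2(FPKM + 1) scale in limma. Igfbp3 (ENSMUSG00000020427, chromosome 11 from 7206086 to 7213923, minus strand), the main carrier of IGF1 in serum, was at 14.4, 8.33, 13.9, 17.1 and 22 FPKM in WT and at 20.5, 15.6, 7.80 and 9.89 FPKM in ERβKO ovaries. It varied more than 2-fold within each genotype, with 2.64 times between the highest and the lowest WT ovary and 2.62 times in ERβKO. Its log2 fold change was -0.22 ± 0.31 (SE, adjusted p = 0.739), and with 1 library left out it ranged from -0.47 without ERβKO replicate 1 to -0.03 without WT replicate 5 or ERβKO replicate 3. It was -0.38 without WT replicate 2 and -0.10 without ERβKO replicate 4.

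Igfbp7 (ENSMUSG00000036256, chromosome 5 from 77349240 to 77408041, minus strand), which binds insulin-like growth factors only weakly and is deposited around blood vessels, varied little between mice, with a coefficient of variation of 10.6% in WT and 3.19% in ERβKO. It was at 199, 212, 217, 180.1 and 168 FPKM in WT and at 193, 196, 204 and 206 FPKM in ERβKO ovaries, all 4 of them inside the WT range. The log2 fold change was 0.02, with a 95% confidence interval of -0.15 to 0.19 (adjusted p = 0.920). Of the exonic length of Igfbp7, 7.03% lies opposite to Polr2b, and no source used here says if fragments were counted by strand. No other member shares exonic bases with another gene in the GENCODE annotation.

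**Figure D2:**
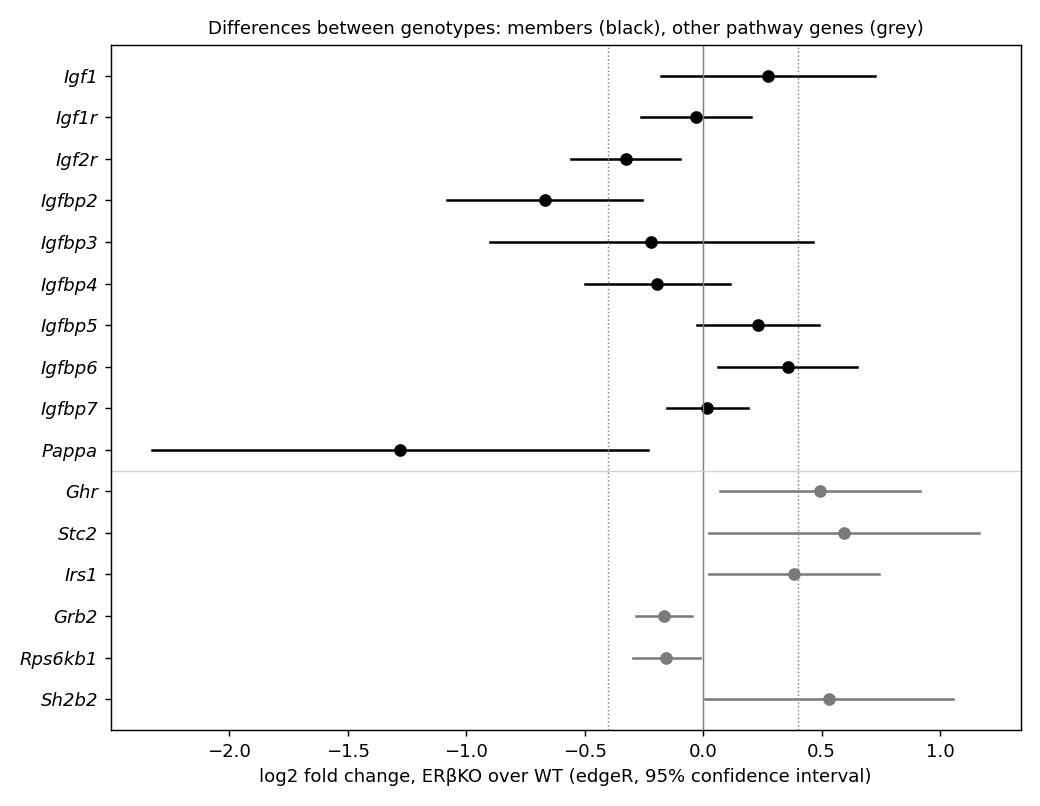
Log2 fold change of ERβKO over WT (x axis) with its 95% confidence interval for the 10 members (black) and for 6 other pathway genes with an unadjusted p under 0.05 and a mean over 1 FPKM (grey), from edgeR; dotted lines stand at the required size of 0.4. The intervals of 4 members leave out 0: Igf2r, Igfbp2 and Pappa below it and Igfbp6 above it, and Pappa has the widest.

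Together the 6 binding protein genes summed to 408 ± 37.9 FPKM (SD, n = 5) in WT and 433 ± 18.9 FPKM (SD, n = 4) in ERβKO ovaries. Igfbp7 made up 47.9% ± 1.28 (SD) of this sum in WT and 46.3% ± 2.30 in ERβKO, and Igfbp5 25.4% ± 2.30 and 28.5% ± 3.44. The share of Igfbp6 was 7.11% to 9.14% in WT and 9.28% to 11.6% in ERβKO ovaries. The genotypes did not overlap in this share, although they did in the FPKM of Igfbp6 itself. How often such shares separate the genotypes was not calculated. The share of Igfbp2 was 3.08% to 6.85% in WT and 2.54% to 3.14% in ERβKO ovaries, where only WT replicate 2, at 3.08%, lay in the ERβKO range. Igfbp4 and Igfbp3 held 9.66% and 3.82% in WT and 8.84% and 3.11% in ERβKO. The shares of 1 ovary sum to the whole, so that they are not independent of each other. Per FPKM of Igf1 there were 17.6 ± 4.19 FPKM (SD, n = 5) of binding protein transcripts in WT and 13.9 ± 4.91 (SD, n = 4) in ERβKO ovaries, with ERβKO replicate 2 at 21.1 and the other ERβKO ovaries at 10.7 to 12.4.

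**Figure D3:**
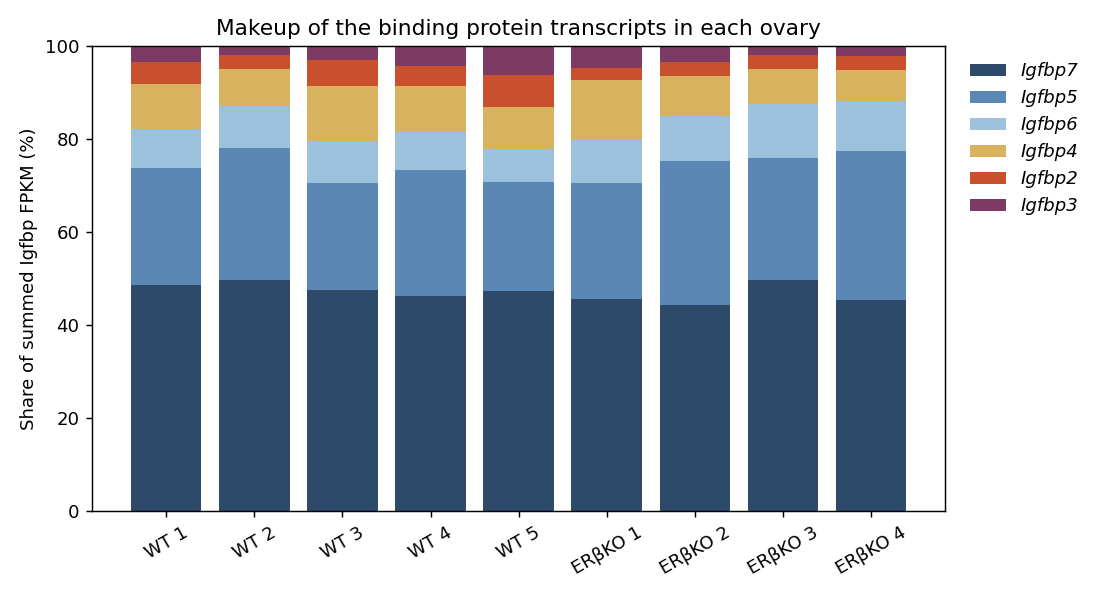
Share of each binding protein gene in the summed FPKM of the 6 genes (y axis, %) in every ovary (x axis, WT 1 to 5 and ERβKO 1 to 4). Igfbp7 and Igfbp5 hold most of the sum in every ovary, and the Igfbp2 band is 2.54% to 3.14% high in the ERβKO ovaries and in WT 2 at 3.08%, against 4.21% to 6.85% in the other WT ovaries.

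Pappa (ENSMUSG00000028370, chromosome 4 from 65124174 to 65357509, plus strand) encodes pappalysin-1, the metalloprotease that cuts IGFBP4 and IGFBP5 and so frees the ligand. It was the lowest member, with 72 to 436 fragments per library. Its level was 1.17, 0.668, 0.402, 1.87 and 2.08 FPKM in WT and 0.266, 0.462, 0.685 and 0.629 FPKM in ERβKO ovaries. Of the WT ovaries, 3 were above every ERβKO ovary, while WT replicates 2 and 3 lay inside the ERβKO range. The means were 1.24 ± 0.730 FPKM (SD, n = 5) and 0.511 ± 0.189 FPKM (SD, n = 4). The log2 fold change was -1.28 ± 0.47 (SE, adjusted p = 0.176; DESeq2, adjusted p = 0.0515), with a confidence interval of -2.33 to -0.23, the widest among the members. WT replicates 4 and 5 were the 2 highest ovaries and also the only libraries numbered above 200, so that number and genotype are not separate there. Without them the log2 fold change was -0.52 (adjusted p = 0.608), smaller in size than that of Igfbp2 in the same fit (-0.62). On the log2(FPKM + 1) scale in limma, where a pseudocount near its own level understates the change, it was -0.51 (adjusted p = 0.271). The exact permutation test gave p = 0.127.

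The wider pathway was followed through 49 further genes, of which 42 were tested and none passed in edgeR or in DESeq2. Before adjustment, 6 were higher and 4 lower in ERβKO at a p under 0.05, against 9.81% and 10.0% of all genes tested, and the median log2 fold change of the 42 was 0.07. The FPKM values of the genotypes did not overlap for 3 of the 42, Ptpn11 and Igf2bp3 among them, against 7.61% of all genes tested.

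Of the other ligands and receptors, 4 of 7 were tested. Igf2, the second ligand, was at 1.73 ± 0.176 FPKM (SD, n = 5) in WT and 2.06 ± 0.234 FPKM (SD, n = 4) in ERβKO ovaries (adjusted p = 0.276), well below Igf1. Insr, the insulin receptor, was at 11.1 and 10.3 FPKM (adjusted p = 0.352). Ghr, the growth hormone receptor, was the highest of the list. Its level was 21.7, 22.5, 21.2, 29.9 and 19.9 FPKM in WT and 47.9, 30.6, 29.8 and 25.4 FPKM in ERβKO ovaries, highest in the ERβKO ovary with the high adipocyte markers. Its log2 fold change was 0.49 ± 0.19 (SE, adjusted p = 0.193), and without that ovary 0.23 (adjusted p = 0.370). The part of the adipocyte markers in this difference was not tested beyond leaving out that ovary.

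Of the other binding protein and complex genes, 2 of 4 were tested. Htra1, a secreted serine protease that can cut IGFBP5, was at 135 ± 30.5 FPKM (SD, n = 5) in WT and 161 ± 18.8 FPKM (SD, n = 4) in ERβKO ovaries (adjusted p = 0.475). All 3 genes of the pappalysin list were tested. Stc2, a stanniocalcin that inhibits PAPPA, was at 9.24, 23.2, 10.8, 12.3 and 8.85 FPKM in WT and at 13.7, 23.8, 19.9 and 19.9 FPKM in ERβKO ovaries. Every ERβKO ovary was above 4 of the 5 WT ovaries, and WT replicate 2 was near the highest. Stc2 had a log2 fold change of 0.60 ± 0.26 (SE, adjusted p = 0.235) and, without WT replicate 2, of 0.89 (adjusted p = 0.0155), which passed. In that fit 5.51% of all genes tested passed. Its relative Stc1 was at 10.9 ± 4.21 FPKM (SD, n = 5) and 16.2 ± 6.66 FPKM (SD, n = 4), with an adjusted p of 0.346 in edgeR.

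Of the 32 adaptor and signalling genes, 31 were tested and 5 had a p under 0.05 before adjustment. Irs1, the insulin receptor substrate that links the receptor to phosphatidylinositol 3-kinase, was at 11.1, 14.8, 8.96, 9.90 and 8.31 FPKM in WT and at 12.7, 14.7, 11.7 and 17.3 FPKM in ERβKO ovaries. As for Stc2, all ERβKO ovaries were above 4 of the 5 WT ovaries. Irs1 had a log2 fold change of 0.38 ± 0.16 (SE, adjusted p = 0.226) and, without WT replicate 2, of 0.53 (adjusted p = 0.0372), which passed. In that fit 5.51% of all genes tested passed. Sh2b2, an adaptor of the insulin receptor, had a log2 fold change of 0.53 (adjusted p = 0.246) with means of 1.12 (WT) and 1.66 FPKM (ERβKO).

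Grb2 and Rps6kb1 had slightly lower means in ERβKO. Grb2, the adaptor that leads to Ras, was at 25.5 ± 0.844 FPKM (SD, n = 5) in WT and 23.0 ± 0.980 FPKM (SD, n = 4) in ERβKO ovaries, a log2 fold change of -0.16 (adjusted p = 0.129; DESeq2, adjusted p = 0.0432). Rps6kb1, the S6 kinase downstream of mTOR, had a log2 fold change of -0.16 (adjusted p = 0.215). The highest gene of the list was Grb14, an adaptor that restrains the insulin receptor, at 132 ± 24.1 FPKM (SD, n = 5) and 125 ± 58.3 FPKM (SD, n = 4), with an adjusted p of 0.890 in edgeR. Of the mRNA-binding proteins named for the IGF2 transcript, 2 of 3 were tested, and the highest, Igf2bp2, had means of 5.15 (WT) and 5.92 FPKM (ERβKO) (adjusted p = 0.437).

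Genes whose log2 CPM over the 9 ovaries was most like that of a member were sought among 14178 tested genes with a mean over 1 FPKM. For Igfbp2 these were Eif1ax, Eif3c and Bud31, with a likeness (Pearson's r) of 0.985, 0.971 and 0.971. For Igf2r they included 4930503L19Rik and Maoa, with 0.981 and 0.965. For Pappa they were Mllt11, Clic3 and Cptp, with 0.976, 0.974 and 0.964. These are the highest of many values over the same 9 libraries, so that depth and genotype are common to both genes of a pair, and they are given as a description. Like the members, none of the genes named here passed the test between genotypes in edgeR, although Maoa differed by as much as Igfbp2, with 18.8 ± 5.95 FPKM (SD, n = 5) in WT and 11.9 ± 1.29 FPKM (SD, n = 4) in ERβKO and a log2 fold change of -0.67 (adjusted p = 0.0905).

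**Figure D4:**
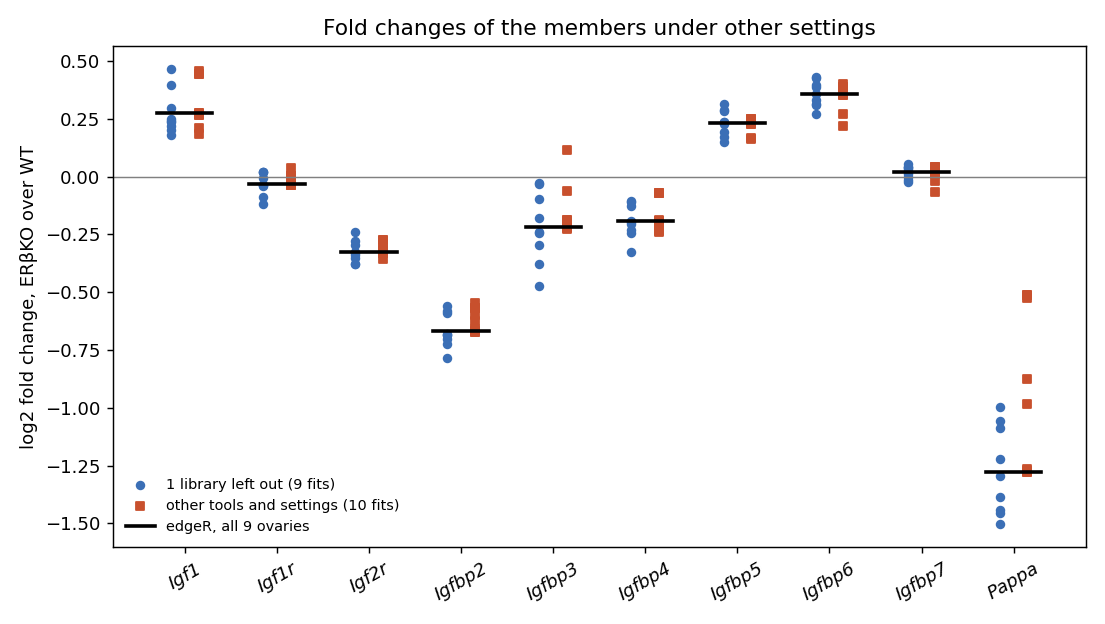
Log2 fold change of each member (y axis, ERβKO over WT) in edgeR with all 9 ovaries (black line), with 1 library left out (blue points, 9 fits) and under other tools and settings (orange squares, 10 fits). Igf1, Igfbp5 and Igfbp6 stay above 0 and Igf2r, Igfbp2, Igfbp4 and Pappa below it in every fit shown, while Igf1r, Igfbp3 and Igfbp7 cross 0 in some.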

How the data were processed

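RNA-seq of 9 whole ovaries (5 WT, 4 ERβKO) was used. The methods state stranded poly-A libraries, mapped by the authors to GRCm38 with STAR; the submitters' notes also name Trim Galore and bcl2fastq 2.20.0.422. The deposited counts are the authors' raw FeatureCounts fragment counts per gene. The authors calculated the deposited FPKM with StringTie, per length and depth. The deposited TPM and coverage values, also made by the authors with StringTie, were read but gave no result.

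Counts were fitted in R 4.3.3 with edgeR 4.0.16 (filterByExpr, TMM normalization, quasi-likelihood test on genotype, Benjamini-Hochberg adjustment over 16722 genes), with the study's thresholds, and with DESeq2 1.42.0 as an alternative. Log2 FPKM plus a pseudocount of 1 or 0.1 were fitted with limma 3.58.1. The exact permutation tests used log2 FPKM with a pseudocount of 0.01. Totals of 12353740 to 18717510 fragments and a common biological coefficient of variation of 0.179 set the precision. Each mouse is 1 replicate. On simulated counts with 200 changed genes, edgeR called 97% of those changed 4-fold and 74% of those changed 2-fold. Genes were called there by adjusted p under 0.05 alone. Changes under 2-fold, as most members had, were not simulated. Of the calls, 2.84% were false in edgeR and 13.9% in DESeq2.

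The members, the pathway and marker lists, the naming rule and the alternatives were chosen with earlier results of these data known. Named besides the members were pathway genes that passed, those with an unadjusted p under 0.05 and a mean over 1 FPKM, the highest gene of each list, the non-overlapping genes of the list, which were added after their values were seen, and, for the 3 members with the smallest p, the 3 genes most like each. The lists of stromal, smooth muscle, endothelial, macrophage, oocyte, surface epithelium and oviduct markers had no gene that passed in edgeR, and of the theca list 1 gene passed, higher in ERβKO. In DESeq2, 1 smooth muscle marker passed, lower in ERβKO, and 1 endothelial marker, higher. Of the theca list, 1 gene passed higher and 1 lower in DESeq2. Annotation was GENCODE vM21, and promoters were from RefSeq. Protein sequences were not used here. Single genes that these rules name but the text leaves out are not reported here.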

Additional observations from a re-analysis of the deposited data

Results flagged for a closer look

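Of 34 groups of 4 or 5 ovaries (17 genes in 2 genotypes), 4 had 1 ovary far from the others, where chance gives about 1 in 20. Igf1 was at 20.9 FPKM in ERβKO replicate 2, against 36.5 to 38.5 FPKM in the other ERβKO ovaries. Its centred log2 ratio of FPKM over CPM was also lowest there, at -0.88, against -0.64 to -0.51 in the other ERβKO ovaries. The gap was thus smaller per counted fragment. Grb2 was at 24.5 FPKM in the same ovary, against 22.4 to 22.8 FPKM in the others. Stc2 was at 23.2 FPKM in WT replicate 2, against 8.85 to 12.3 FPKM in the other WT ovaries. Ghr was at 29.9 FPKM in WT replicate 4, against 19.9 to 22.5 FPKM in the other WT ovaries.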

How the results depend on the processing

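Under 19 alternatives, 175 fold changes of members kept their direction and their side of the threshold, 13 turned sign and 2 newly passed. With DESeq2, 800 genes passed instead of 287, and Igfbp2 (log2 fold change -0.67) was the 1 member among them. With 1 library left out, 60 to 912 of all genes, 0 to 1 members and 0 to 2 wider pathway genes passed. The high end of each is the fit without WT replicate 2, with Igfbp2, and with Irs1 and Stc2, and the log2 fold change of Igfbp2 ranged from -0.79 to -0.56. Without ERβKO replicate 2, 60 genes passed, without ERβKO replicates 3 and 4, 152 and 80, and without WT replicates 1, 4 and 5, 118, 161 and 110. Among the libraries numbered below 200, which leaves out WT replicates 4 and 5, 51 genes passed, and with limma on log2(FPKM + 1) with no filter on FPKM, 39. No member passed in these fits. The labels give replicate numbers and state no pairing. Deviations from the genotype means of same-numbered ovaries correlated at 0.095, 0.130, -0.043 and -0.011, which cannot exclude that animals were paired. With the replicate number as a block, 155 genes and none of the members passed.

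The fold changes of 3 members turned sign. Igf1r ranged from -0.118 to 0.022 with 1 library left out, and was 0.039 among libraries numbered below 200 and 0.0009, 0.0006 and 0.0009 in limma with log2(FPKM + 1), log2(FPKM + 0.1) and no FPKM filter. Igfbp7 ranged from -0.0211 to 0.0566 with 1 library left out, and was -0.018 with the replicate block and -0.068 among libraries numbered below 200. Igfbp3 was 0.12 among those libraries, instead of -0.22. The cause was not tested. Pappa was -0.88 with the replicate block. The depth of Pappa, 72 to 436 fragments per library, was the lowest of the members.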

Other observations

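Several genes of the system below 1 FPKM in both genotypes had a p under 0.05 before adjustment in edgeR and rest on few fragments. Igfals, which encodes the acid-labile subunit of the serum complex, had 7 to 56 fragments per library, with 0.245 ± 0.0763 FPKM (SD, n = 5) in WT and 0.572 ± 0.431 FPKM (SD, n = 4) in ERβKO ovaries (edgeR, adjusted p = 0.179). Insrr, the insulin receptor-related receptor, had 2 to 37 fragments, with 0.175 ± 0.118 FPKM (SD, n = 5) and 0.0741 ± 0.0488 FPKM (SD, n = 4) (edgeR, adjusted p = 0.217). Igf2bp3, an mRNA-binding protein, had 10 to 40 fragments, with 0.113 to 0.192 FPKM in WT and 0.243 to 0.437 FPKM in ERβKO ovaries, with no overlap (edgeR, adjusted p = 0.139). These genes were named after their values had been seen.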
